A study of Mus musculus with 24 samples.

Results

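The genes of ISG15 conjugation were examined in 4 derivatives of the EO771 mouse mammary carcinoma line. The 6 genes were taken by name: *Isg15*, its activating enzyme *Uba7* (E1), its conjugating enzyme *Ube2l6* (E2), the ligases *Herc6* and *Trim25* (E3) and the protease *Usp18*. All 6 were among the 13915 genes of the batch 2 table and the 55471 genes of the batch 1 table, and all 6 passed the filter on low counts in both batches. EO771 arose as a spontaneous tumour of C57BL/6 mice and is most often treated as a model of triple-negative breast cancer. Every derivative carried the retroviral vector pLNCX2 and the tdTomato reporter. X2 cells held the vector without *Ccr7* and served as control. CCR7 cells were transduced with mouse *Ccr7* cDNA and sorted as negative for podoplanin (PDPN). CCR7-PDPN cells were the PDPN-positive sort of the *Ccr7*-transduced cells, and X2-PDPN cells were X2 cells enriched by sorting for PDPN that had arisen spontaneously. CCR7 cells were sequenced in batch 1 only and X2-PDPN cells in batch 2 only, and X2 and CCR7-PDPN cells in both, with 4 libraries for each derivative and batch. The labels call the 4 libraries of a derivative technical replicates, and the cells were sorted without selection of single clones, so that the p-values below measure the spread between libraries and not between independently derived populations.

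ISG15 is a ubiquitin-like protein with tandem ubiquitin-like domains that is induced by type I interferon and attached to lysines of target proteins, a reaction called ISGylation. UBA7 activates ISG15, UBE2L6 carries it, and an E3 ligase passes it to the target. HERC6 is the principal ISG15 ligase of the mouse, whereas TRIM25 is better known as a ubiquitin ligase of the RIG-I antiviral pathway and attaches ISG15 to a few targets. USP18 removes ISG15 from its targets and, separately from its protease activity, binds the interferon receptor subunit IFNAR2 and restrains type I interferon signalling. Tumour cells can express these genes at a low, constant level without added interferon.

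The genes lie on 5 chromosomes of GRCm38. *Isg15* was listed at chr4:156199455-156200796 (minus strand) with 703 bases of exon, the shortest of the 6. *Usp18* (chr6:121245906-121270917, plus strand, 2790 bases) and *Herc6* (chr6:57581000-57664632, plus strand, 9292 bases) share chromosome 6, on which they lie far apart. *Uba7* was at chr9:107975505-107984060 (6692 bases), *Ube2l6* at chr2:84798828-84810335 (1996 bases) and *Trim25* at chr11:88999376-89020293 (5754 bases), all on the plus strand. In the GENCODE M21 annotation *Uba7* overlaps Gm20661 on the same strand, and 162 of the 7802 stretches of 75 bases (the read length) in *Uba7* transcripts also occur in transcripts of Gm20661. *Isg15*, *Usp18* and *Trim25* had no stretch of 75 bases in common with another gene, *Ube2l6* had 9 of 2051, and *Herc6* had 1065 of 9432, so that its counts can depend on how reads with several matches were treated.

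The promoters are shown as a description, and their part in the changes below was not tested. Each stretch is RefSeq sequence of build GRCm38.p6, printed 5′ to 3′ on the strand of the gene and up to the base before the earliest start annotated in RefSeq or GENCODE. Capitals mark matches of AANNGAAA on either strand and of a repeat of GAAA with 2 bases between its copies, the core of the interferon-stimulated response element (ISRE). Each match of the ISRE core contains a match of AANNGAAA. The stretches are *Isg15* chr4:156200819-156201068 (minus strand), *Ube2l6* chr2:84798578-84798827 (plus strand), *Herc6* chr6:57580742-57580991 (plus strand) and *Trim25* chr11:88999153-88999375 (plus strand).
Isg15: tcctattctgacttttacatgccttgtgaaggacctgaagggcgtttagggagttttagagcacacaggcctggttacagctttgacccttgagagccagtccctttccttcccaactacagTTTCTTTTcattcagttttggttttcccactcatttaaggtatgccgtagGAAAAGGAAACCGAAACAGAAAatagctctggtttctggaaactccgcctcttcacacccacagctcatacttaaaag
Ube2l6: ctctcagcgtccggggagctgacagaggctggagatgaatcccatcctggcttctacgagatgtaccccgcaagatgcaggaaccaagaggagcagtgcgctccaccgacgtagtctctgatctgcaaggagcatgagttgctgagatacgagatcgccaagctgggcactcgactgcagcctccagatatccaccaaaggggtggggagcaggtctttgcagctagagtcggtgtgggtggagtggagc
Herc6: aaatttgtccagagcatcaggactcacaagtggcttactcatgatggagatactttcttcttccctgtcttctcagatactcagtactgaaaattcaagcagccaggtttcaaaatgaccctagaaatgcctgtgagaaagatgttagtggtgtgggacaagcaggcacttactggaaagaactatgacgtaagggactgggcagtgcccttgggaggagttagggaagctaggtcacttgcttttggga
Trim25: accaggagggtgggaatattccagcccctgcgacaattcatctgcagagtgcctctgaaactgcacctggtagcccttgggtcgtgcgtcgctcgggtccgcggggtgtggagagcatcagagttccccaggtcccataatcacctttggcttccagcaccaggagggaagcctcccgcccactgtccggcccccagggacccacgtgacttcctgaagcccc
*Isg15* held 3 overlapping matches of the ISRE core, beginning 78, 72 and 66 bases before the RefSeq start, and 1 further AANNGAAA match on the opposite strand at 128 bases before it. Over 32851 RefSeq promoters of the same 250 bases, 2.98% held the ISRE core and 21.3% held AANNGAAA. *Ube2l6*, *Herc6* and *Trim25* held neither in this window, and *Uba7* held 1 match of AANNGAAA, TTTCACTT as read on its own strand, 27 bases before the RefSeq start, where GENCODE already places a *Uba7* transcript. *Trim25* held 2 matches of the GC box GGGCGG, read as CCGCCC, at 75 and 21 bases before the RefSeq start, the latter past the stretch shown, and 32.7% of all promoters hold that motif. The letters TTCNNNGAA, found in 7.02% of promoters, occurred in none of the 5 promoters searched. *Usp18* was not matched in the promoter table. These matches describe the letters of the windows only.

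The libraries held 22275468 to 33395418 counts in batch 1 and 22788542 to 35721027 in batch 2, and mitochondrial genes took 0.347% to 0.871% and 0.435% to 1.05% of them. *Ccr7* had 61655 to 100109 counts in the *Ccr7*-transduced libraries and 4 to 29 in the others, and *Pdpn* had 576 to 924 counts in the PDPN-positive libraries and 0 to 20 in the others, as the labels say. Of the markers of the line, *Krt8* and *Vim* were high in every library, whereas *Krt18*, *Epcam* and *Cdh1* reached at most 9, 2 and 7 counts in batch 1. Of 5 leukocyte markers, *Ptprc*, *Cd3e*, *Adgre1* and *Itgam* had at most 4 counts in any library of batch 1, *Cd3e* none. The fifth, *Lyz2*, moved with *Ccr7*: in batch 1 X2 libraries had 154 to 214 of its counts, CCR7 libraries 45 to 65 and CCR7-PDPN libraries 18 to 28, and in batch 2 X2 libraries had 206 to 248, X2-PDPN libraries 175 to 243 and CCR7-PDPN libraries 9 to 22. The TPM of the 5 leukocyte markers summed to 17.9 to 21.1 (X2), 3.95 to 6.46 (CCR7) and 1.69 to 2.56 (CCR7-PDPN) over the libraries of batch 1. Of the 5, *Lyz2* alone was analysed in batch 2, at 19.2 to 23.2 TPM (X2), 18.3 to 19.5 TPM (X2-PDPN) and 1.11 to 2.05 TPM (CCR7-PDPN). The part of these markers in the results below was not tested. No endothelial marker passed 20 counts, and of the fibroblast markers *Pdgfra* and *Pdgfrb* were high in every library while *Dcn* and *Lum* had at most 3 and 0 counts in batch 1.

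*Isg15*, the modifier itself, was highest in X2 cells and lower in each other derivative. Its 4 X2 libraries of batch 1 had 28.5, 26.2, 26.5 and 27.8 CPM (counts per 1000000 counts of the genes tested, scaled by TMM factors), the CCR7 libraries 14.0, 14.4, 12.4 and 10.1 and the CCR7-PDPN libraries 7.32, 6.60, 6.58 and 7.15. In batch 2 they were 29.4, 24.9, 25.6 and 27.0 (X2), 8.85, 9.02, 6.65 and 7.83 (X2-PDPN) and 9.12, 7.43, 6.83 and 7.44 (CCR7-PDPN). The 3 groups of batch 1 did not overlap, and in batch 2 both PDPN-positive groups lay below every X2 library while overlapping each other. The fall from X2 to CCR7 was 2.13-fold (log2 -1.09, SE 0.07, adjusted p = 7.96e-11), that from CCR7 to CCR7-PDPN 1.85-fold (log2 -0.89, SE 0.09, adjusted p = 7.90e-08), and that from X2 to X2-PDPN 3.28-fold (log2 -1.71, SE 0.08, adjusted p = 1.93e-17). Between CCR7-PDPN and X2-PDPN the log2 difference of -0.09 did not pass the test (SE 0.10, adjusted p = 0.412). In bulk samples fewer expressing cells and less RNA per cell cannot be told apart.

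**Figure D1:**
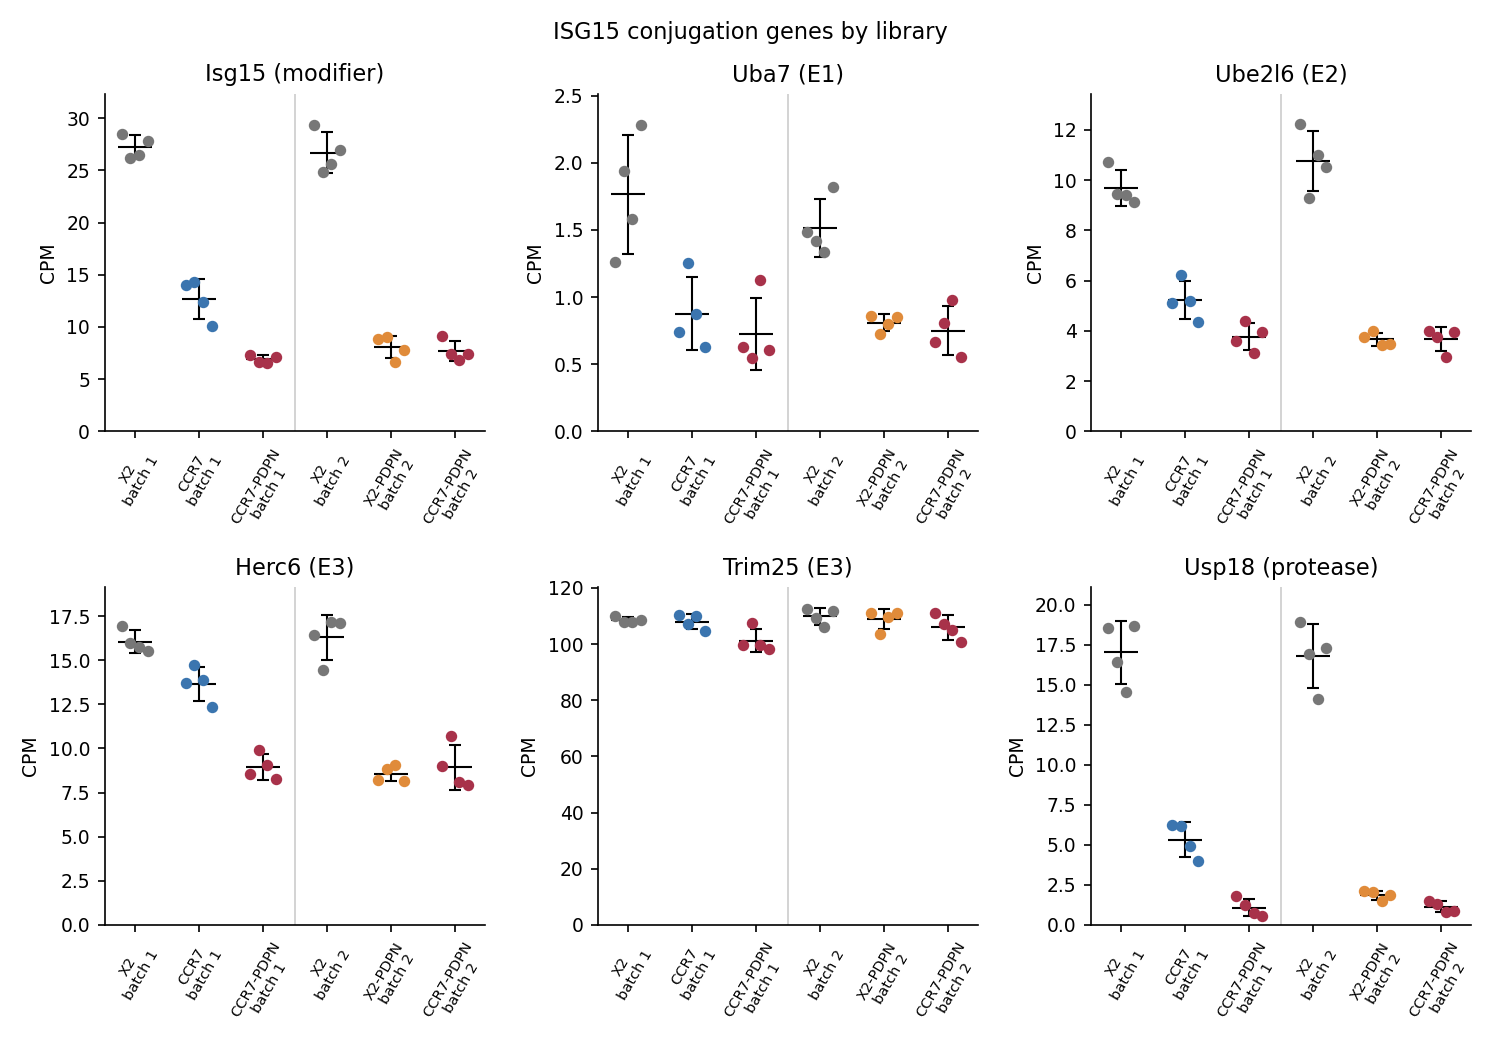
CPM of the 6 genes in each of the 24 libraries (points), by group on the horizontal axis, with the mean and SD of the 4 libraries in black and a grey line between the batches; each vertical axis starts at 0 and has its own scale. *Isg15* stands at 26.2 to 28.5 CPM in X2 cells of batch 1 and at 6.58 to 7.32 CPM in CCR7-PDPN cells, whereas *Trim25* stays between 98.1 and 112 CPM throughout.

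*Usp18*, the ISG15 protease and brake on the interferon receptor, fell most. In batch 1 its X2 libraries had 18.5, 16.4, 14.5 and 18.7 CPM, its CCR7 libraries 6.23, 6.20, 4.90 and 4.01 and its CCR7-PDPN libraries 1.80, 1.22, 0.739 and 0.576. In batch 2 the values were 18.9, 16.9, 14.1 and 17.3 (X2), 2.11, 2.03, 1.47 and 1.86 (X2-PDPN) and 1.51, 1.32, 0.790 and 0.884 (CCR7-PDPN). The groups of batch 1 were again apart, and in CCR7-PDPN cells the counts behind these values were 17 to 57 in batch 1 and 24 to 41 in batch 2, against 398 to 548 and 432 to 522 in X2. *Usp18* fell 3.15-fold from X2 to CCR7 (log2 -1.66, SE 0.17, adjusted p = 4.82e-06), 4.89-fold from CCR7 to CCR7-PDPN (log2 -2.29, SE 0.26, adjusted p = 2.46e-05) and 8.93-fold from X2 to X2-PDPN (log2 -3.16, SE 0.11, adjusted p = 6.82e-22). It was the only one of the 6 genes to pass the test between the PDPN-positive derivatives, at 1.69-fold lower in CCR7-PDPN than in X2-PDPN (log2 -0.76, SE 0.19, adjusted p = 0.00103), although the highest CCR7-PDPN library lay above the lowest X2-PDPN library. Over the whole span from X2 to CCR7-PDPN the fall was 15.4-fold in batch 1 and 15.1-fold in batch 2.

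*Ube2l6*, the E2 that hands ISG15 to its ligases, followed the order of *Isg15*. Batch 1 libraries had 10.7, 9.44, 9.40 and 9.13 CPM in X2, 5.11, 6.24, 5.20 and 4.37 in CCR7 and 3.60, 4.39, 3.13 and 3.96 in CCR7-PDPN. The libraries of batch 2 had 12.2, 9.30, 11.0 and 10.5 (X2), 3.75, 4.01, 3.44 and 3.49 (X2-PDPN) and 4.00, 3.76, 2.97 and 3.98 (CCR7-PDPN). Every X2 library was above every other library of its batch, and the CCR7 and CCR7-PDPN groups touched, the lowest CCR7 library being just under the highest CCR7-PDPN library. *Ube2l6* was 1.84-fold lower in CCR7 than in X2 (log2 -0.88, SE 0.10, adjusted p = 2.82e-07), 1.39-fold lower in CCR7-PDPN than in CCR7 (log2 -0.48, SE 0.12, adjusted p = 0.00227) and 2.91-fold lower in X2-PDPN than in X2 (log2 -1.54, SE 0.10, adjusted p = 3.72e-18). CCR7-PDPN and X2-PDPN cells had mean levels of 3.68 and 3.67 CPM and did not pass the test (log2 difference -0.02, SE 0.12, adjusted p = 0.912).

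*Uba7*, the E1, was the rarest of the 6 and the least precise, with 14 to 67 counts a library. Its CPM in batch 1 was 1.26, 1.94, 1.58 and 2.28 in X2, 0.744, 1.25, 0.872 and 0.631 in CCR7 and 0.631, 0.545, 1.13 and 0.610 in CCR7-PDPN. In batch 2 it was 1.48, 1.41, 1.34 and 1.82 (X2), 0.856, 0.724, 0.802 and 0.853 (X2-PDPN) and 0.667, 0.804, 0.980 and 0.552 (CCR7-PDPN). All X2 libraries lay above all others of their batch, though by little, the lowest X2 library of batch 1 having 1.26 CPM and the highest CCR7 library 1.25. The fall from X2 was 1.99-fold in CCR7 (log2 -0.99, SE 0.24, adjusted p = 0.00177), 1.88-fold in X2-PDPN (log2 -0.91, SE 0.20, adjusted p = 0.000158) and 2.43-fold and 1.98-fold in CCR7-PDPN of batch 1 (log2 -1.28, SE 0.25, adjusted p = 0.000143) and batch 2 (log2 -0.99, SE 0.21, adjusted p = 6.19e-05). The overlapping Gm20661 had few counts and was clearly higher in CCR7-PDPN cells only. X2 libraries had 0 to 3 of its counts in batch 1 and 1 to 5 in batch 2, CCR7 libraries 1 to 6 and X2-PDPN libraries 0 to 5. CCR7-PDPN libraries had 8 to 18 in batch 1 and 9 to 13 in batch 2. An analysis added after these values were seen summed the counts of both genes. The log2 fold changes of CCR7-PDPN against X2 then shrank from -1.28 to -0.66 in batch 1 and from -0.99 to -0.45 in batch 2 (adjusted p = 0.0171 and 0.0301). Those of CCR7 and X2-PDPN against X2 became -0.85 and -0.83 (adjusted p = 0.00494 and 0.000247). Between CCR7-PDPN and CCR7 *Uba7* did not pass the test (log2 difference -0.29, SE 0.28, adjusted p = 0.439). Nor did it between CCR7-PDPN and X2-PDPN (log2 difference -0.08, SE 0.23, adjusted p = 0.793). With the counts summed these differences changed sign, to 0.19 and 0.38, and did not pass either (adjusted p = 0.581 and 0.103).

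The 116 tested genes within 5 Mb of *Uba7* on chromosome 9 had a median change above 0 in each derivative against X2. On the log2 scale it was 0.38 for CCR7 against X2, 0.41 and 0.44 in CCR7-PDPN against X2 of batch 1 and batch 2, and 0.14 in X2-PDPN against X2. The windows round the other 5 genes had medians between -0.16 and 0.17 over the 6 comparisons.

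*Herc6*, the main ISG15 ligase of the mouse, differed little between X2 and CCR7 and more with PDPN. It ranged over 15.5 to 17.0 CPM (X2), 12.3 to 14.7 (CCR7) and 8.27 to 9.93 (CCR7-PDPN) within batch 1, and over 14.5 to 17.2 (X2), 8.16 to 9.06 (X2-PDPN) and 7.92 to 10.7 (CCR7-PDPN) within batch 2. Both PDPN-positive groups lay below all X2 and CCR7 libraries of their batch. *Herc6* was 1.17-fold lower in CCR7 than in X2 (log2 -0.23, SE 0.07, adjusted p = 0.00646), 1.53-fold lower in CCR7-PDPN than in CCR7 (log2 -0.61, SE 0.07, adjusted p = 5.96e-07) and 1.90-fold lower in X2-PDPN than in X2 (log2 -0.92, SE 0.08, adjusted p = 9.19e-14). Between CCR7-PDPN and X2-PDPN it did not pass the test (log2 difference 0.06, SE 0.08, adjusted p = 0.561).

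*Trim25*, the ligase shared with the RIG-I pathway, stayed nearly level. Its libraries ranged over 108 to 110 CPM (X2), 105 to 110 (CCR7) and 98.1 to 107 (CCR7-PDPN) within batch 1, and over 106 to 112 (X2), 104 to 111 (X2-PDPN) and 101 to 111 (CCR7-PDPN) within batch 2. With 2322 to 3724 counts a library it was the most precisely measured of the 6, and a fall of 1.07-fold from X2 to CCR7-PDPN in batch 1 passed the test (log2 -0.10, SE 0.03, adjusted p = 0.0142). The 1.07-fold fall from CCR7 to CCR7-PDPN passed as well (log2 -0.09, SE 0.03, adjusted p = 0.0301), and no longer did without any 1 of 4 libraries, with only these groups in the fit (adjusted p = 0.0568) or with no filter on low counts (adjusted p = 0.107). The log2 differences of -0.01, -0.01 and -0.05 in CCR7 (batch 1), X2-PDPN and CCR7-PDPN (batch 2) against X2 did not pass (SE 0.03, 0.03 and 0.03).

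**Figure D2:**
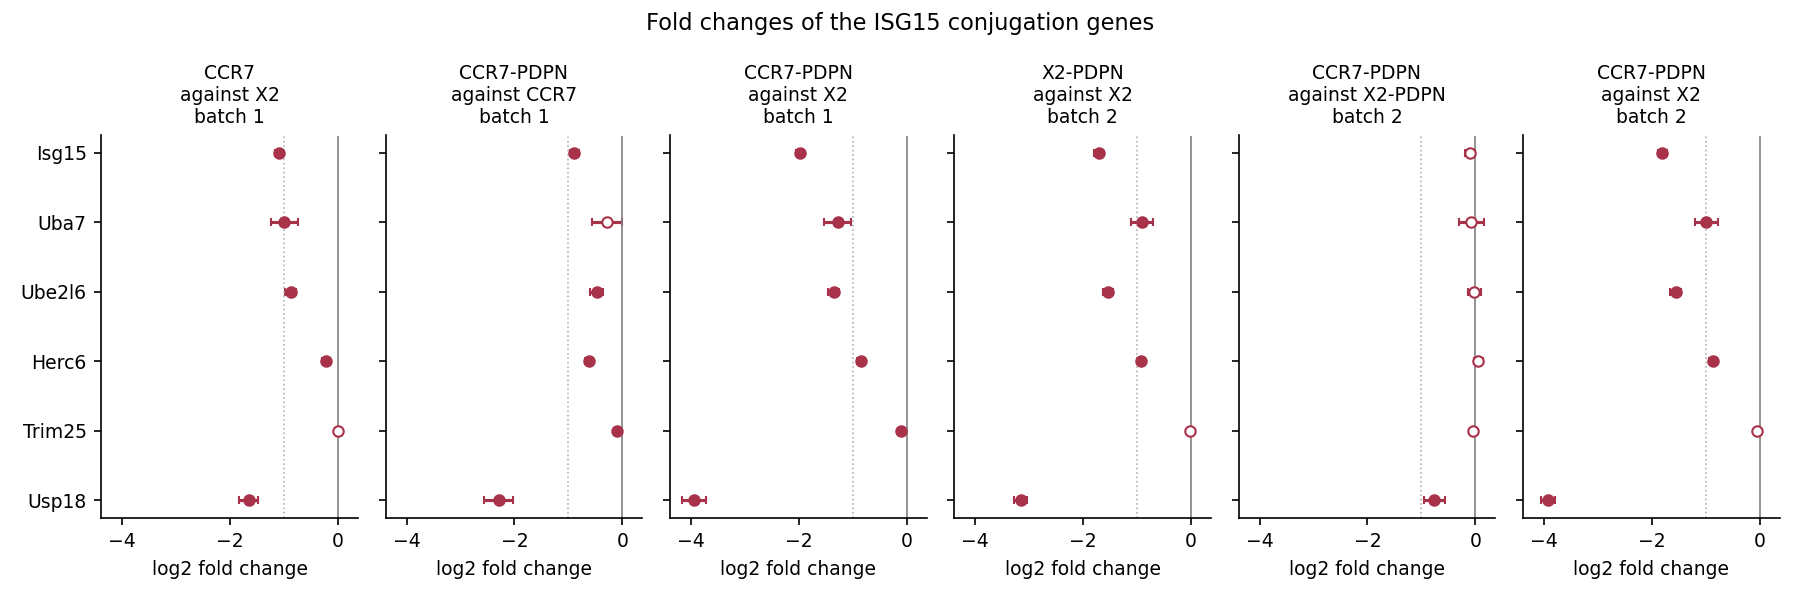
Log2 fold changes of the 6 genes (horizontal axes) in the 6 comparisons, with bars of 1 SE from edgeR; filled points passed an adjusted p under 0.05, and the dotted line marks a log2 fold change of -1. Apart from CCR7-PDPN against X2-PDPN, where *Usp18* alone was lower at -0.76, the points lie at or left of 0 with *Usp18* farthest out.

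Counted over the 6 genes, CCR7 cells had 5 lower than X2 at an adjusted p under 0.05, where 25.2% of the 13261 genes tested were lower, and 2 (*Isg15* and *Usp18*) also passed a log2 fold change of -1, as did 3.18% of all genes. From CCR7 to CCR7-PDPN, 5 were lower against 20.7% of all genes, and *Usp18* alone passed the fold change, as did 2.60% of genes. CCR7-PDPN against X2 in batch 1 gave 6 lower against 30.6% of all genes, 4 of them (*Isg15*, *Usp18*, *Ube2l6* and *Uba7*) past the fold change against 5.36%. In batch 2 of the 13314 genes tested, X2-PDPN against X2 had 5 lower against 28.5% and 3 (*Isg15*, *Usp18* and *Ube2l6*) past the fold change against 1.55%. CCR7-PDPN against X2 had 5 lower against 32.8% and the same 3 past the fold change against 5.67%. These comparisons share the X2 libraries. CCR7-PDPN against X2-PDPN had 1 lower of 6 against 32.0% of all genes, and none past the fold change, as 6.40% of genes were. No gene of the 6 was higher at an adjusted p under 0.05 in any of these comparisons. The median log2 fold change of the 6 ran from -1.32 in CCR7-PDPN against X2 of batch 1 to -0.06 in CCR7-PDPN against X2-PDPN, while that of all genes tested was 0.00 in each.

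CCR7-PDPN against X2 was the comparison made in both batches. Whether the batches are independent is not given by the labels. Each of the 8 X2 and CCR7-PDPN libraries of batch 1 was nearest, by chi-square of the counts, to the library of its own number in batch 2, at 2.88 to 5.32 per degree of freedom. Other numbers across batches stood at 3.13 to 10.1, but libraries of 1 derivative within a batch at 2.07 to 7.15. By correlation of deviations 5 of the 8 were nearest to their own number. The batches may thus share RNA and are not counted as independent repeats. The log2 fold changes were -1.98 and -1.81 for *Isg15*, -3.95 and -3.92 for *Usp18*, -1.36 and -1.56 for *Ube2l6* and -0.84 and -0.87 for *Herc6* in batch 1 and batch 2. In the test of the difference between batches by edgeR, none of the 6 passed (unadjusted p from 0.187 to 0.941, 0 under 0.05), and 0 did so by DESeq2 or limma. Of all 13690 genes, 0% passed this test. In a fit of these 16 libraries with derivative and number as a block, added after this was seen, none of the 6 passed either (unadjusted p from 0.0370 to 0.726, 1 under 0.05), and 1 of 13400 genes did.

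The difference that went with PDPN was larger without *Ccr7* than with it. On the log2 scale *Ube2l6* fell by 0.48 from CCR7 to CCR7-PDPN and by 1.54 from X2 to X2-PDPN, and the difference between these changes was 1.07 (SE 0.16, adjusted p = 6.51e-07, edgeR over 24 libraries). For *Isg15* the falls were 0.89 and 1.71 and their difference 0.83 (SE 0.13, adjusted p = 8.18e-06). *Herc6* had a difference of 0.31 (SE 0.11, adjusted p = 0.0191) and *Usp18* of 0.87 (SE 0.34, adjusted p = 0.0474). That of *Usp18* failed the threshold without any 1 of 11 single libraries, the highest adjusted p being 0.265, and with limma (0.0809), and that of *Herc6* failed without the second CCR7-PDPN library of batch 1 (0.07). *Uba7* (0.62, SE 0.34, adjusted p = 0.145) and *Trim25* (-0.08, SE 0.05, adjusted p = 0.194) did not pass, and *Uba7* did when its counts were summed with those of Gm20661 (1.02, adjusted p = 0.00731). So 4 of the 6 passed in this direction, as did 20.3% of all genes, and 1, *Ube2l6*, exceeded 1 on the log2 scale, as did 0.964% of all genes. The cells with *Ccr7* came from batch 1 and those without it from batch 2, so that batch and *Ccr7* cannot be told apart in this contrast.

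**Figure D3:**
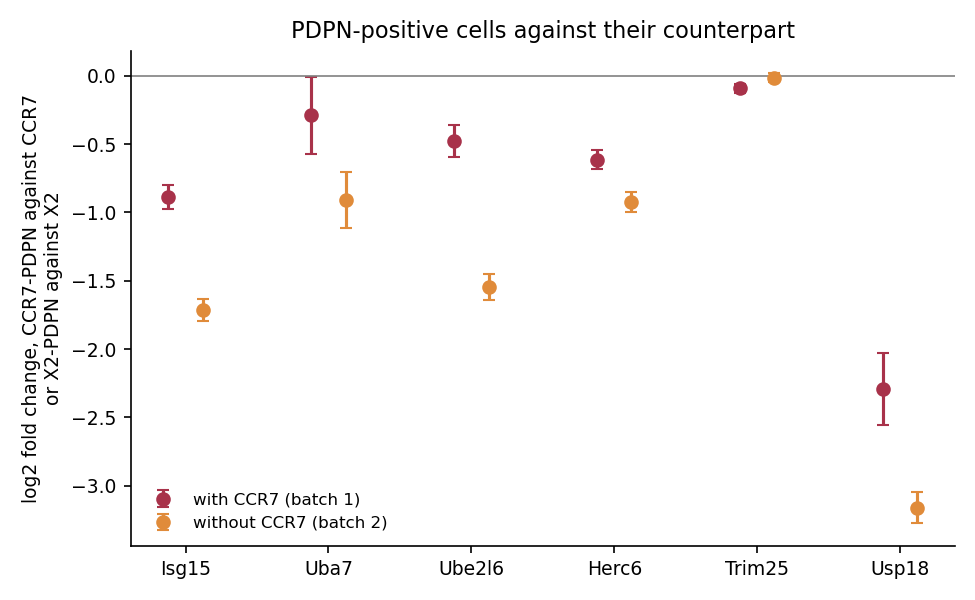
Log2 fold change of CCR7-PDPN against CCR7 (red, batch 1) and of X2-PDPN against X2 (orange, batch 2) for each gene, with bars of 1 SE from edgeR. The orange points lie lower for every gene except *Trim25*, by 1.07 for *Ube2l6* and 0.83 for *Isg15*.

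The make-up of the set changed with these falls. Per length, in TPM (counts per base of gene length, scaled to the same total in each library), the 6 genes summed to 264 ± 8.60 in X2, 161 ± 13.8 in CCR7 and 113 ± 3.82 in CCR7-PDPN of batch 1 (mean ± SD, n = 4), and to 263 ± 14.7 (X2), 127 ± 4.93 (X2-PDPN) and 120 ± 7.93 (CCR7-PDPN) in batch 2. *Isg15* made up 54.9% ± 0.433 (SD, n = 4) of the summed TPM in X2 cells of batch 1, 41.9% ± 2.74 in CCR7 and 32.0% ± 1.87 in CCR7-PDPN. *Trim25* rose in share from 26.7% ± 0.739 to 43.9% ± 3.45 and 57.2% ± 1.58 at a nearly constant level, and was the most abundant of the 6 on mean TPM in every group other than X2, in CCR7 cells by little (70.4 against 67.8 TPM of *Isg15*). In X2 cells of batch 1 the order by TPM was *Isg15* (145 ± 5.14), *Trim25* (70.6 ± 0.432), *Usp18* (22.9 ± 2.58), *Ube2l6* (18.1 ± 1.29), *Herc6* (6.47 ± 0.239) and *Uba7* (0.988 ± 0.249). In CCR7-PDPN cells of the same batch it was *Trim25* (64.8 ± 2.91), *Isg15* (36.2 ± 1.92), *Ube2l6* (6.96 ± 0.976), *Herc6* (3.55 ± 0.306), *Usp18* (1.43 ± 0.734) and *Uba7* (0.401 ± 0.149). The protease had thus gone from above to below the E2 and the ligase *Herc6* in batch 1. In X2 cells of batch 2 it was closer to the E2, at 22.5 ± 2.54 against 20.1 ± 2.22 TPM. The third X2 library of that batch had the reverse order, with 19.0 against 20.7 TPM.

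The protease also fell relative to its modifier. There were 15.7 ± 1.35 *Usp18* transcripts per 100 *Isg15* transcripts in X2, 10.5 ± 0.638 in CCR7 and 3.92 ± 1.87 in CCR7-PDPN of batch 1 (mean ± SD of TPM ratios, n = 4). Batch 2 had 15.9 ± 1.38 (X2), 5.80 ± 0.212 (X2-PDPN) and 3.64 ± 0.801 (CCR7-PDPN). The ratio was lower in every library of each other group than in any X2 library of its batch, and in batch 2 lower in every CCR7-PDPN than in every X2-PDPN library. CCR7-PDPN libraries of batch 1 reached 6.19, above all X2-PDPN libraries.

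**Figure D4:**
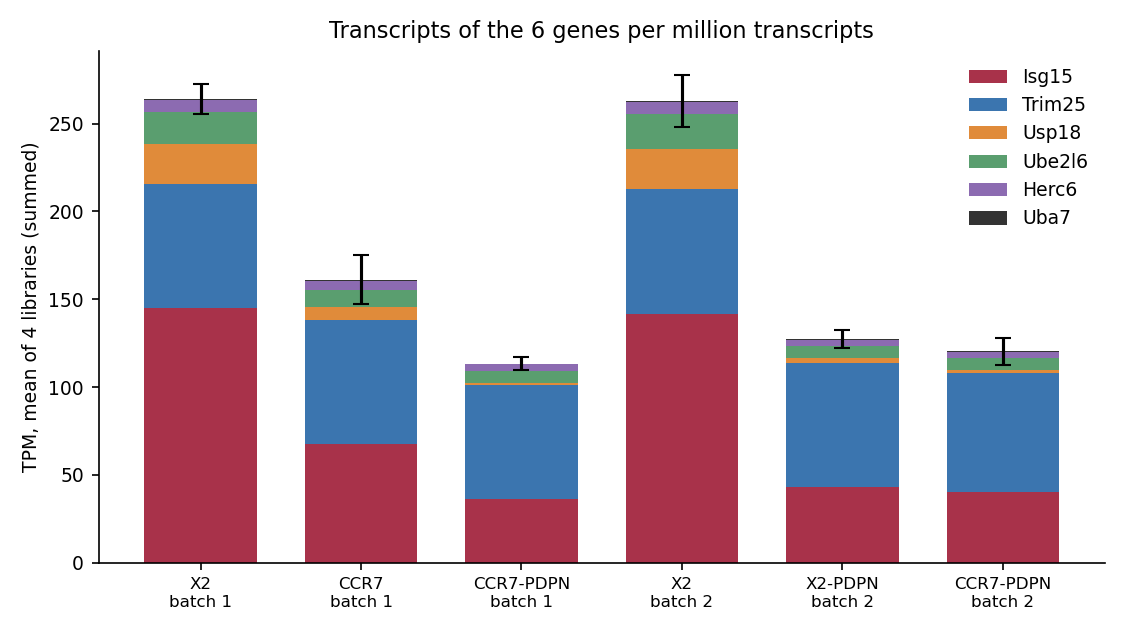
Mean TPM of the 6 genes stacked by group (vertical axis, 4 libraries a group), with error bars of 1 SD for the sum. *Isg15* is the largest block in X2 cells, at 145 TPM in batch 1, and *Trim25* the largest in the PDPN-positive cells, at 64.8 TPM in CCR7-PDPN cells of batch 1.

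Likeness of pattern was measured over the 24 libraries by Pearson's r of log2 CPM after subtraction of the X2 mean of the batch, as a description, since the libraries fall into 6 groups that share their RNA source. Among 13689 other genes those nearest to *Isg15* were *Gbp3* (r = 0.98), *Ifi35* (0.98) and *Oasl2* (0.98), and those nearest to *Usp18* were *Bst2* (0.99), *Gbp3* (0.98) and *Ifi44* (0.98). *Usp18* ranked 9 and *Ube2l6* ranked 19 among the genes nearest to *Isg15*, with r = 0.97 for both, and *Herc6* was farther off (0.92). *Ube2l6* was nearest to *Psmd8* (0.98), *Serpinb9b* (0.97) and *B2m* (0.97), the last the light chain of MHC class I, with *Isg15* the next gene (0.97). *Herc6* was nearest to *Lgals9* (0.97), *Oas3* (0.97) and *L1cam* (0.97). *Uba7* was nearest to *Zfp869* (0.90), *Trpv3* (0.88) and *Slc35f5* (0.88) and had r = 0.82 with *Isg15*. *Trim25* had no close partner, its nearest genes being *Dph7* (0.79), *Tyw1* (0.77) and *Lamb3* (0.76), with r = 0.54 to *Isg15*. Within the groups, after subtraction of each group's own mean, *Isg15* still went with *Ube2l6* (r = 0.65) and *Usp18* (0.60) from library to library. It went less with *Trim25* (0.23) and *Herc6* (0.19), and hardly with *Uba7* (0.05). *Usp18* had r = 0.48 with *Trim25*, 0.40 with *Ube2l6* and 0.36 with *Herc6*. These values were not set beside those of all genes.

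The related genes were read in the same way, by counts and medians, in X2-PDPN and CCR7-PDPN against X2 of batch 2, in which 28.2% and 32.0% of all genes were higher. Of 9 other partners of ISG15, such as the ligase *Arih1*, the cross-reactive proteases *Usp16* and *Usp21* and the subunits of its receptor LFA-1, 4 were lower and 2 higher in X2-PDPN and 4 lower and 3 higher in CCR7-PDPN, with medians of -0.06 and -0.03. *Itgal*, a subunit of LFA-1, passed the fold change upward, by 2.99-fold (adjusted p = 8.10e-13) and 2.45-fold (adjusted p = 4.48e-10) at 0.68 TPM in X2, and *Usp5*, the partner of highest CPM, had log2 fold changes of 0.05 (adjusted p = 0.124) and 0.32 (adjusted p = 5.56e-14). The 19 tested paralogues of the 6 genes that serve ubiquitin and other modifiers had 8 lower and 4 higher in X2-PDPN and 9 lower and 9 higher in CCR7-PDPN, none past the fold change in these comparisons. Their medians were -0.05 and -0.03, and the ubiquitin E1 *Uba1* had log2 fold changes of -0.13 and 0.09. The other ubiquitin-like modifiers and ubiquitin genes, 15 tested, had 8 and 9 lower and 1 and 4 higher, with medians of -0.08 and -0.10. Among them *Oasl2*, an interferon-induced protein that carries ubiquitin-like domains, fell 6.09-fold in X2-PDPN (adjusted p = 1.06e-07) and 11.7-fold in CCR7-PDPN (adjusted p = 1.75e-08), its relative *Oasl1* fell 1.95-fold (adjusted p = 3.70e-15) and 2.55-fold (adjusted p = 1.52e-19), and *Rps27a*, a ubiquitin precursor, fell by 0.09 and 0.18 on the log2 scale.

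**Figure D5:**
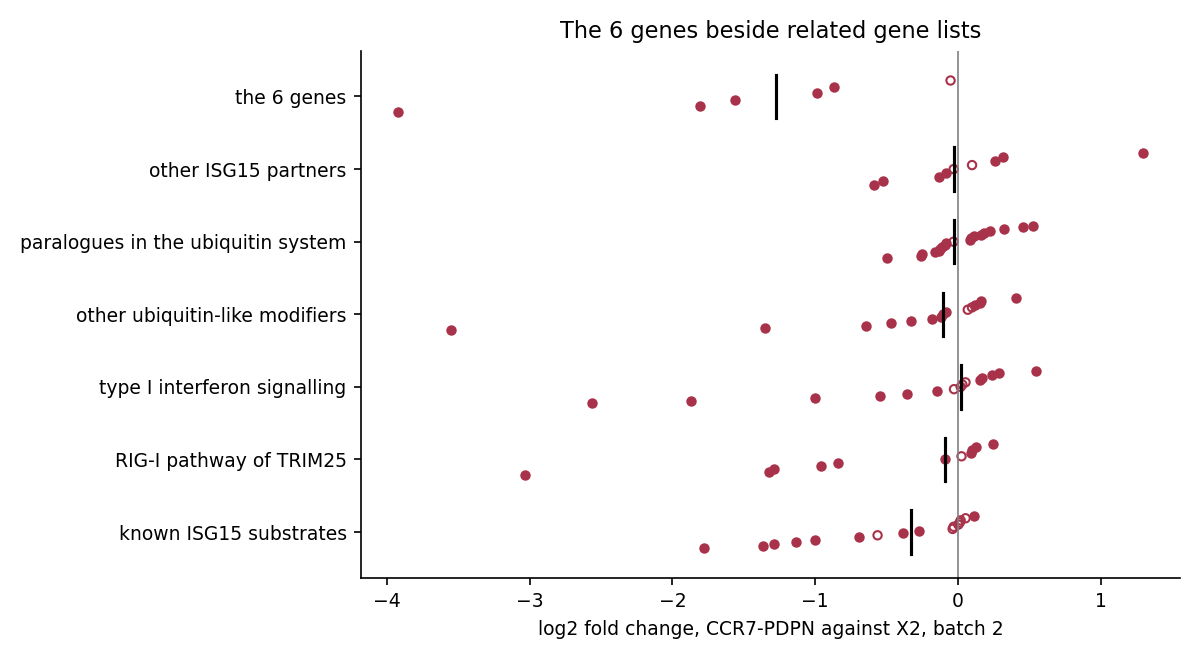
Log2 fold changes of CCR7-PDPN against X2 in batch 2 (horizontal axis) for the 6 genes and 6 related lists, each point a gene, filled where the adjusted p was under 0.05, with the list median as a black bar. The median of the 6 genes is -1.27, and those of the related lists lie between -0.33 and 0.02.

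Of the genes of type I interferon signalling 15 were tested, and their medians were -0.03 in X2-PDPN and 0.02 in CCR7-PDPN against X2, with 5 and 6 lower and 2 and 5 higher. Those past the fold change included *Irf7* (6.60-fold and 5.91-fold), a transcription factor that amplifies interferon production, and *Irf9* (2.67-fold and 3.66-fold), the DNA-binding subunit of the ISGF3 complex. *Jak1*, the kinase of highest CPM here, had log2 fold changes of 0.04 (adjusted p = 0.163) and 0.16 (adjusted p = 8.45e-07). The receptor subunit *Ifnar2*, the binding partner of USP18, had log2 fold changes of -0.02 and 0.05 and did not pass the test in either comparison; it is named here for that role. *Ifna1*, *Ifna2* and *Ifna4* had 0 counts in every library of batch 1, and *Ifnb1* had 0 to 4.

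In the RIG-I pathway, in which TRIM25 acts, 6 of 11 genes were lower and 3 and 4 higher in X2-PDPN and CCR7-PDPN against X2, with medians of -0.16 and -0.09. The sensors *Ifih1* (MDA5) fell 3.58-fold and 8.18-fold, *Ddx58* (RIG-I) 2.91-fold and 2.44-fold, and *Dhx58* (LGP2) 3.06-fold and 2.50-fold. *Nlrc5*, the activator of MHC class I genes, fell 2.14-fold and 1.95-fold, and each of these falls passed an adjusted p under 0.05. By contrast *Zc3hav1*, the antiviral zinc-finger protein of highest CPM in the list, rose by 0.10 on the log2 scale in both. Of 16 tested genes whose products are known to be ISGylated, 7 and 8 were lower and 2 and 1 higher, with medians of -0.14 and -0.33. They included *Bst2* (2.27-fold and 2.58-fold lower) and *Ifit1* (1.28-fold and 3.44-fold lower), both interferon-induced antiviral proteins, and beside them *Parp1*, the substrate of highest CPM, which had log2 fold changes of -0.02 and -0.04 and did not pass the test. Some genes, *Irf3* and *Ddx58* among them, are counted in 2 of these lists.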

How the data were processed

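RNA of 4 derivatives of EO771 was sequenced in 24 libraries and 2 batches (TruSeq Stranded mRNA, single-end reads of 75 bases, GRCm38/mm10). The authors deposited 1 table of raw counts per Ensembl gene for each batch, without normalization or pooling, together with the length of each gene. The batch 2 table held 13915 genes, so that its depth is the total over those. The aligner, the annotation release and the treatment of strand and of reads with several matches are not given in the sources used here.

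Groups were taken from the labels and compared within a batch by edgeR 4.0.16 (R 4.3.3): filterByExpr, TMM factors and the quasi-likelihood F test with all 12 libraries of a batch in the fit, with p adjusted by Benjamini-Hochberg over the 13261 genes tested in batch 1 and the 13314 in batch 2. Contrasts across batches used all 24 libraries and 13690 genes. A gene was called at an adjusted p under 0.05, and past the fold change at an absolute log2 fold change above 1. CPM were computed per 1000000 counts of the genes tested, and TPM from counts and deposited lengths, by Python 3.11.15. DESeq2 1.42.0, limma 3.58.1 (voom), other scaling factors and filters, a replicate block, the subtraction of the median of neighbouring genes and the omission of each library were alternatives. The fits were tested on simulated data. P-values cover the spread between technical replicates, and intervals of counting error are not given.

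The 6 genes, the related lists and the tests were chosen with earlier results of these data known. The text names the 6 genes, from each list up to 4 genes past the fold change by smallest p and the gene of highest CPM, and for each of the 6 the 3 genes nearest in pattern. *Ifnar2*, *Arih1*, *Usp16*, *Usp21*, the interferon genes and Gm20661 are named outside that rule. Some genes that this rule or the marker lists hold are not reported here.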

Additional observations from a re-analysis of the deposited data

Results flagged for a closer look

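*Uba7* in the third CCR7-PDPN library of batch 1 stood apart from its group: it had 1.13 CPM against 0.545 to 0.631 in the other 3 libraries, and the gap took 0.852 of the range, above the 95% limit of the Dixon test. In batch 2 the third CCR7-PDPN library was also the highest of its group, at 0.980 CPM against 0.552 to 0.804. The first was 1 of 36 groups examined, and about 1 in 20 is flagged by chance.

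The change that went with PDPN differed between cells with and without *Ccr7* for 4 genes in the edgeR test of the difference itself. On the log2 scale it was 1.07 for *Ube2l6*, 0.83 for *Isg15*, 0.87 for *Usp18* and 0.31 for *Herc6*, in each case a smaller fall in the *Ccr7*-transduced cells. Of all genes, 20.3% passed in the same direction. The differences of *Usp18* and *Herc6* lost the threshold when certain single libraries were omitted, and that of *Usp18* also with limma. These contrasts set batch 1 against batch 2.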

How the results depend on the processing

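No result changed direction past its threshold. Some values that did not pass changed sign, among them 2 of *Uba7* with Gm20661 summed. Of 934 alternative values for single genes, 913 kept their side of the threshold, 19 lost it and 2 gained it. Among the 913 are 36 values with the median of neighbouring genes subtracted. These kept the adjusted p of the main fit, so they could not lose or gain the threshold. A further 48 of the 934 values came from the sum of *Uba7* with Gm20661. It left the counts of the other genes unchanged, so that their values could hardly move. At a log2 fold change of 0.5 the number of lower genes was 4 in CCR7 against X2, 3 in CCR7-PDPN against CCR7, 5 in X2-PDPN against X2, 1 in CCR7-PDPN against X2-PDPN and 5 in CCR7-PDPN against X2 of batch 2. The share of all genes at 0.5 is not given here. With no fold change threshold the 6 genes had 5, 5, 5, 1 and 5 lower, against 25.2%, 20.7%, 28.5%, 32.0% and 32.8% of all genes. The genes whose PDPN change differed with *Ccr7* numbered 3 at 0.5 and 4 with no fold change threshold, and 2 with *Uba7* and Gm20661 summed, an alternative added after seeing the data. When single libraries were omitted, the lower genes past the fold change numbered 2 to 3 in CCR7 against X2 and 3 to 4 in CCR7-PDPN against X2 of batch 2, and did not move in the other comparisons within a batch. The genes whose PDPN change differed numbered 0 to 2: 0 without the second CCR7-PDPN library of batch 1 and 2 without the third or the fourth. The *Usp18* difference itself ranged from 0.50, without the first CCR7-PDPN library of batch 1, to 1.07. A minimum of 50 counts in 4 libraries dropped *Uba7*. In each comparison within a batch it also brought down the number of all genes lower past the fold change. In batch 1 they were 209 in place of 422 (CCR7 against X2), 170 in place of 345 (CCR7-PDPN against CCR7) and 395 in place of 711 (CCR7-PDPN against X2). In batch 2 they were 107 in place of 206 (X2-PDPN against X2), 446 in place of 852 (CCR7-PDPN against X2-PDPN) and 423 in place of 755 (CCR7-PDPN against X2). The number of genes tested under that filter is not given here. Fits with the replicate block changed no call (2, 1, 4, 3, 0 and 3 lower genes, and 1 for the PDPN difference). Within a batch libraries of the same number had deviations correlated at -0.12 to 0.11, 1 of 24 pairs above 0.1. Those of other numbers correlated at -0.09 to 0.10. Such low values cannot decide whether libraries of the same number share more than that number there. Across batches the deviations of X2 and CCR7-PDPN libraries of the same number correlated at -0.0029 to 0.096, none of 8 above 0.1, while all 8 were nearest by chi-square to their own number, a hint from the data and not the design that they may share RNA; by correlation 5 of the 8 were. With that replicate block across batches, added after seeing the data, 0 of the 6 genes differed between batches. The alternatives with 2 groups in the fit or neighbouring genes subtracted were not run for the contrasts across batches.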
